A study of Mus musculus with 6 samples.

Results

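The 50 genes described here encode proteins of mitosis, the spindle and chromosome segregation, from cyclin-dependent kinase 1 to the motors and scaffolds of cell division. They were chosen by name, with earlier results of these data known, and are grouped here by 8 textbook roles. Of the 50, 48 were measured on the arrays, each by 1 transcript cluster (the probe set that stands for a gene), out of 30142 genes tested. No row of the array annotation listed Ccnb1, the main B-type cyclin, and the row of Foxm1, a transcription factor for mitotic genes, also listed another gene, so neither was analysed here. The cells were F4/80-positive macrophages of epididymal fat from male C57BL/6J mice, obtained by collagenase digestion, labelling with the BM8 antibody and magnetic selection. High-fat diet (HFD) mice ate Research Diets D12492, with 60% fat, and normal chow (NCD) mice ate Envigo Teklad 8904. Both diets ran for 16 weeks, with mice 6 weeks old at the start and 22 weeks old at collection. Each diet had 3 pools, of 10 mice each for HFD and 20 mice each for NCD, and each pool was hybridised to 1 Affymetrix array after labelling of 100 ng of total RNA. The pools are called HFD1 to HFD3 and NCD1 to NCD3. Pools and not mice are the replicates, so the p-values measure the spread between pools. Changes are log2 HFD minus NCD, and the value after ± is the SE from limma.

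Before a cell divides, Cdk1 bound to A- and B-type cyclins starts mitosis, and the spindle checkpoint holds the anaphase-promoting complex inactive until every kinetochore is attached to microtubules. Cdc20 then activates that complex, separase opens cohesin, and motor proteins and the central spindle complete chromosome separation and cytokinesis. Most of these genes are transcribed mainly in the G2 and M phases and are silent in resting cells, and their transcripts are therefore used as marks of dividing cells. Macrophages of fat can divide in place as well as arise from blood monocytes.

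The 8 measured macrophage markers were above background on all 6 arrays, and their mean log2 level was 15.1 to 15.3 in HFD pools and 14.4 to 15.1 in NCD pools. Adgre1, which encodes F4/80, gave 16.54, 16.55 and 16.70 on HFD1 to HFD3, against 16.08, 15.93 and 15.05 on NCD1 to NCD3. The pools also held other cells. The 11 endothelial markers averaged 11.3 to 12.7 in HFD pools and 12.2 to 14.7 in NCD pools, and the 10 smooth muscle and pericyte markers averaged 7.78 to 8.83 in HFD pools and 10.2 to 12.1 in NCD pools. In HFD3 the 7 neutrophil markers averaged 10.6, against 7.54 in HFD1 and 7.47 in HFD2, while the NCD pools lay between 8.59 and 9.14. Correlations between arrays over all transcript clusters were 0.995 within HFD, 0.985 to 0.993 within NCD and 0.976 to 0.988 between diets. In such bulk samples, more cells of a type or in a phase and more RNA per cell cannot be told apart.

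Mitotic genes were higher in the HFD pools than in the NCD pools in every role examined. Which cells of the pools carried these transcripts was not tested. With limma, 47 of the 48 measured genes were called higher in HFD at an adjusted p below 0.05, against 4.96% of all genes tested. The list was fixed with earlier results of these data known, so this contrast describes the list and is not an independent test. All 48 had a positive change, as did 16017 of all 30142 genes. In limma 0 of the 48 were called lower, and 0 were lower at an unadjusted p below 0.05, while 2.87% of all genes were called lower. Calls that also reached 2-fold were made for 43 of the 48, against 1.97% of all genes. In all 48, each HFD array lay above each NCD array, a pattern found in 17.6% of all genes. The median change was 1.77 on the log2 scale (3.41-fold), against 0.013 over all genes, and single genes ran between 0.72 for Cdca3 and 2.60 for Ccnb2. At least 4-fold changes were found for 15 genes. The gap between the lowest HFD array and the highest NCD array had a median of 1.11 log2, reached at least 1 log2 in 33 genes, and was smallest in Cdca8 (0.40). Over all genes there were 1494 calls higher and 865 lower, a split that became 2573 higher and 693 lower when each array was centred on its median.

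**Figure D1:**
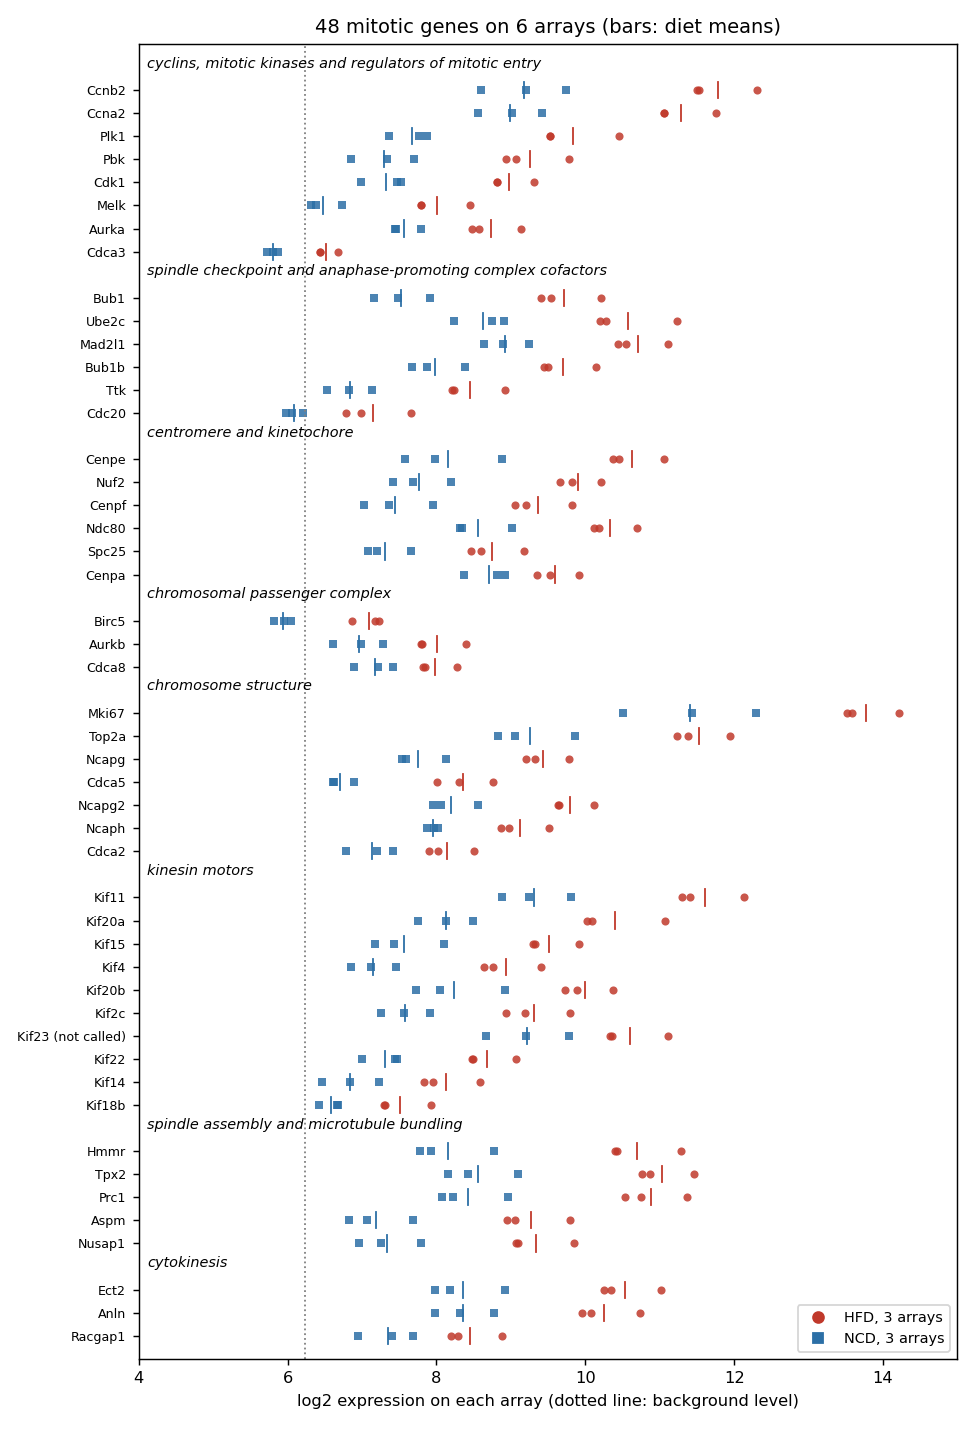
Log2 expression (x axis) of the 48 measured mitotic genes (rows, grouped by role) on each array, with HFD arrays as circles, NCD arrays as squares, short bars at the diet means and a dotted line at the background level of 6.23. In each gene the 3 HFD arrays lie above the 3 NCD arrays.

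How firmly these calls stood depended on the arrays used. Without NCD2, 4 of the 48 were called (Birc5, Cdk1, Nuf2 and Tpx2), and the other 43 lost their call. The median change in that fit was 1.72. Without HFD2 there were 24 calls and without HFD3 26, against 35 without HFD1, 48 without NCD1 and 37 without NCD3. The share of all genes called higher moved too: it was 2.33% without HFD1, 1.05% without HFD2, 1.10% without HFD3, 7.96% without NCD1, 1.05% without NCD2 and 3.09% without NCD3. The median change of the mitotic genes stayed between 1.56 and 1.94 whichever array was left out. With the mean endothelial marker level of each array as a covariate, the median change was 1.27. In limma 6 of the 48 were then called (Birc5, Ccna2, Cenpe, Nuf2, Prc1 and Tpx2). In that fit 0.952% of all genes were called higher, against 4.96% without the covariate. The endothelial marker level had a mean change of −1.93 between the diets, so this fit cannot separate it from diet.

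Promoters of genes that act in G2 and M often carry a cell cycle genes homology region (CHR, TTTGAA), which the MuvB complexes bind, next to CCAAT boxes, which nuclear factor Y binds. The windows searched ran from 250 bases before to 50 bases after the RefSeq gene start (build GRCm38.p6), on both strands, and 42 of the 48 genes had one. Aurkb, Ccna2, Cdca2, Kif20a, Pbk and Tpx2 were without a window. TTTGAA was present in 34 of the 42 (81.0%), against 18.1% of the 27025 genes with a window, and CCAAT in 29 (69.0%), against 37.9%. Both motifs were present in 27 (64.3%), against 7.12% of all genes, and 20 held at least 2 CCAAT boxes (47.6%, against 12.2%). Counting only TTTGAA within 50 bases of the start, a limit chosen after the positions were seen, 31 of the 42 had it (73.8%), against 4.92% of all genes. TTTGAA was present in 31 of 81 windows of other mitotic genes (38.3%), in 3 of 19 of DNA replication genes (15.8%) and in 2 of 15 of subunits of the anaphase-promoting complex (13.3%). Among genes called higher in HFD other than the 48 the share was 13.4%, against 16.4% of genes not called.

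Birc5, Bub1, Cenpe, Mad2l1, Melk, Ncaph, Nuf2 and Nusap1 had no TTTGAA in their window. Their changes ran from 1.15 to 2.48 with a median of 1.89, and those of the 34 genes with the motif from 0.72 to 2.60 with a median of 1.72. A match of letters is not a measured binding site. The last 100 bases before the start are shown for 7 genes of some of the roles, in the direction of transcription. All but Ccnb2 were picked because TTTGAA lies in that stretch, so they do not stand for the 42 genes. Capitals mark TTTGAA and CCAAT, or TTCAAA and ATTGG where the motif lies on the other strand.
Cdk1 (chr10:69352913-69353012, minus strand): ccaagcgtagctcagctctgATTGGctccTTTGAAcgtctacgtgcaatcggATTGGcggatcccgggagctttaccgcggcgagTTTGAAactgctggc
Ccnb2 (chr9:70421555-70421654, minus strand): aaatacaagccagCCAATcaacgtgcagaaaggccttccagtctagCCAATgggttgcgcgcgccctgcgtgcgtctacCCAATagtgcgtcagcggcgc
Cdc20 (chr4:118437344-118437443, minus strand): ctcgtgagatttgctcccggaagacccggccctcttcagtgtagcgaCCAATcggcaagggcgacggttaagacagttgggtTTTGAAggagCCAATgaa
Ube2c (chr2:164769829-164769928, plus strand): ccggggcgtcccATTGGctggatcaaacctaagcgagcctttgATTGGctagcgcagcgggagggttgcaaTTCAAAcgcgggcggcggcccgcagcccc
Top2a (chr11:99024190-99024289, minus strand): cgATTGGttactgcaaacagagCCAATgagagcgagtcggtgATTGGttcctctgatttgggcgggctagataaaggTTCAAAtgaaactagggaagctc
Kif11 (chr19:37376282-37376381, plus strand): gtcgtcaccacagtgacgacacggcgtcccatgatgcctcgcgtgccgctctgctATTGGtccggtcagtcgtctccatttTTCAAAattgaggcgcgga
Kif22 (chr7:127042421-127042520, minus strand): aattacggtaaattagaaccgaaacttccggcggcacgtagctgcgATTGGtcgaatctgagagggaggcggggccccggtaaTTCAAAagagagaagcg
In Cdk1, Cdc20, Top2a, Ube2c, Kif11 and Kif22, so picked, a CHR lies close to the start and at least 1 CCAAT box lies upstream of it. Cdca5, Kif15 and Ncapg2, not shown, also have TTTGAA close before the start but no CCAAT in their windows. Ccnb2 shows 3 CCAAT boxes on the coding strand, and its CHR near the start lies past the end of the stretch shown. Pairs of CCAAT boxes on the same strand spaced 31 to 35 bases apart, a spacing also chosen after the positions were seen, occurred in 7 of the 42 genes (16.7%), against 1.00% of all genes.

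**Figure D2:**
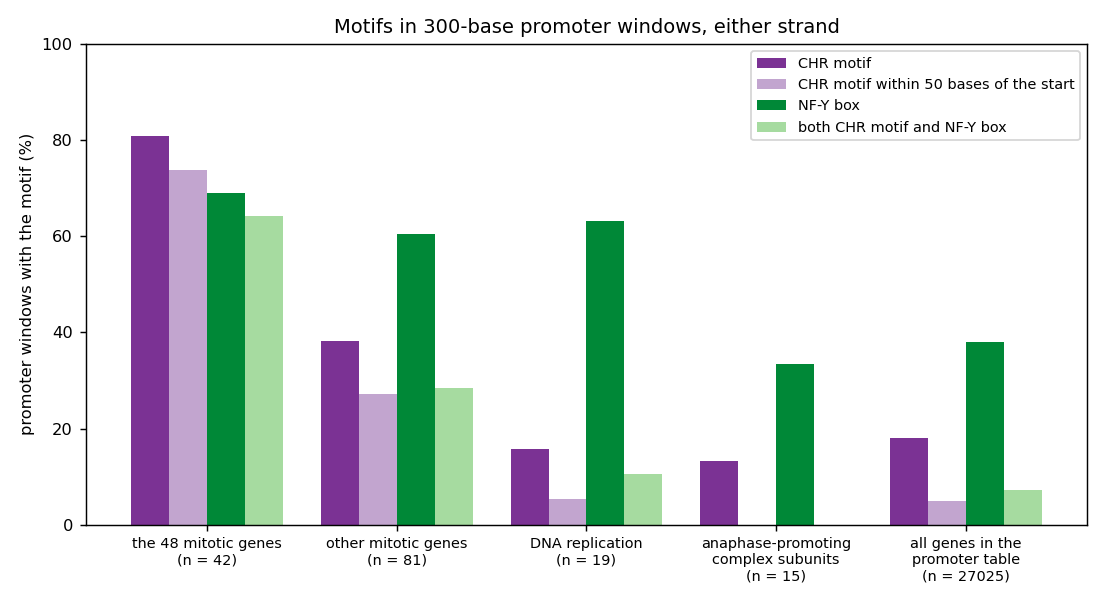
Share of 300-base promoter windows (y axis, percent) that hold the CHR motif, the CHR motif within 50 bases of the gene start, the CCAAT box bound by nuclear factor Y, or both motifs, for the 48 mitotic genes (42 windows), other mitotic genes, DNA replication genes, subunits of the anaphase-promoting complex and all genes. The CHR was in 81.0% of the windows of the 48 genes and in 18.1% of those of all genes.

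All 8 measured genes of mitotic entry were called higher, with a median change of 1.81. Ccna2 encodes cyclin A2, which acts in S phase and at the start of mitosis, and had log2 levels of 11.05, 11.06 and 11.76 on HFD1 to HFD3, against 9.41, 9.01 and 8.56 on NCD1 to NCD3. Its HFD pools were all above its NCD pools, with HFD3 highest, and the change was 2.30 ± 0.28 (4.92-fold, limma adjusted p = 0.00925). Ccnb2, a B-type cyclin partner of Cdk1, had the widest change of the 48, with 11.51, 11.52 and 12.30 in HFD pools and 9.74, 9.20 and 8.60 in NCD pools. The lowest HFD value stood 1.76 above the highest NCD value, and the change was 2.60 ± 0.34 (6.05-fold, adjusted p = 0.0108). Cdk1, the kinase that drives mitotic entry, had 8.81, 8.81 and 9.31 in HFD pools and 7.52, 7.47 and 6.98 in NCD pools, a change of 1.66 ± 0.20 (3.15-fold, adjusted p = 0.00927). HFD1 and HFD2 had the same level to 2 decimals, and NCD3 was the lowest pool.

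Among the other kinases of this group, Plk1, which acts at centrosomes, kinetochores and the central spindle, rose by 2.17 ± 0.28, and Aurka, the centrosomal Aurora kinase, rose by 1.16 ± 0.20. Pbk, a kinase active in mitotic cells, rose by 1.96 ± 0.29, and Melk, a kinase enriched in dividing and progenitor cells, rose by 1.54 ± 0.21. Cdca3, a trigger of mitotic entry, changed least of the 48, with 6.44, 6.44 and 6.68 in HFD pools and 5.87, 5.80 and 5.73 in NCD pools. All 3 NCD values were below the background level of 6.23, so its fitted change of 0.72 ± 0.096 (adjusted p = 0.0112) is restated as a level at least 1.22-fold higher in HFD. The same held for Birc5 and Cdc20. With these 3 genes at such bounds, computed from the HFD mean over the background level, the median of the 48 stayed 1.77 and 41 calls reached 2-fold.

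The 6 genes of the spindle checkpoint and the cofactors of the anaphase-promoting complex were all called higher, with a median change of 1.75. Bub1, a checkpoint kinase at kinetochores, had 9.53, 9.40 and 10.21 in HFD pools and 7.91, 7.49 and 7.17 in NCD pools. The groups were apart by more than 1 log2, and the change was 2.19 ± 0.27 (4.57-fold, adjusted p = 0.00927). Cdc20, the activator that the checkpoint restrains and whose promoter is shown above, had 6.99, 6.78 and 7.66 in HFD pools and 6.21, 6.06 and 5.98 in NCD pools. HFD3 was highest, the groups did not overlap, and with all NCD pools below background the level was at least 1.88-fold higher in HFD (fitted change 1.06 ± 0.22, adjusted p = 0.0384). Bub1b, which encodes the checkpoint protein BubR1, rose by 1.72 ± 0.26. Ttk, the checkpoint kinase Mps1, rose by 1.62 ± 0.24, and Mad2l1, the Mad2 protein that binds Cdc20, rose by 1.78 ± 0.23. Ube2c, the ubiquitin-conjugating enzyme of the anaphase-promoting complex, rose by 1.94 ± 0.32 (3.84-fold).

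The 6 centromere and kinetochore genes were all called higher, with a median change of 1.84. Nuf2, a subunit of the microtubule-binding Ndc80 complex, had 9.83, 9.66 and 10.22 in HFD pools and 8.20, 7.68 and 7.42 in NCD pools. HFD3 was the highest HFD pool, NCD1 the highest NCD pool and the groups did not overlap, and the change was 2.14 ± 0.24 (4.40-fold, adjusted p = 0.00734). Cenpa, the histone H3 variant that marks centromeres, had 9.35, 9.52 and 9.91 in HFD pools and 8.92, 8.82 and 8.37 in NCD pools. The gap between the groups was narrow, and its change of 0.89 ± 0.21 was called with an adjusted p of 0.0499, the largest among the 47. Ndc80 and Spc25, other subunits of the Ndc80 complex, rose by 1.77 ± 0.24 and 1.43 ± 0.23. Cenpe, a kinesin that moves chromosomes to the spindle equator, rose by 2.48 ± 0.36 (5.57-fold), and the large kinetochore protein gene Cenpf rose by 1.91 ± 0.29.

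The 3 genes of the chromosomal passenger complex, which corrects faulty attachments, were called higher with a median change of 1.04. Birc5, which encodes survivin, had 6.87, 7.17 and 7.23 in HFD pools and 5.95, 6.04 and 5.82 in NCD pools. Its NCD values were all below background, so the level was at least 1.81-fold higher in HFD, and its fitted change of 1.15 ± 0.12 had the smallest adjusted p of the 48 (0.00652). HFD2 lay only 0.063 below HFD3, the smallest such distance among the 48. Cdca8, which encodes borealin, had 7.82, 7.84 and 8.28 in HFD pools and 7.42, 7.21 and 6.89 in NCD pools. The groups were closest here, with a change of 0.81 ± 0.18 (adjusted p = 0.0479). Aurkb, the kinase of the complex, rose by 1.04 ± 0.23 (2.06-fold).

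The 7 genes of chromosome structure were all called higher, with a median change of 1.65. Cdca5 encodes sororin, which protects cohesin until anaphase, and had 8.01, 8.30 and 8.76 in HFD pools and 6.89, 6.62 and 6.61 in NCD pools. The groups were apart by more than 1 log2, and the change was 1.65 ± 0.20 (3.13-fold, adjusted p = 0.00906). Cdca2, which targets a phosphatase to chromatin at mitotic exit, had 7.90, 8.02 and 8.51 in HFD pools and 7.41, 7.20 and 6.78 in NCD pools. HFD1 stood 0.49 above NCD1, and the change was 1.01 ± 0.22 (adjusted p = 0.0419). Mki67, the Ki-67 antigen that coats mitotic chromosomes and serves as a mark of dividing cells, had 13.51, 13.59 and 14.21 in HFD pools and 12.29, 11.43 and 10.51 in NCD pools. NCD1 was 1.78 above NCD3, the widest such difference among the 48, and the change was 2.36 ± 0.45 (5.13-fold, adjusted p = 0.0288), with the largest SE of the 48. Top2a, the topoisomerase that untangles sister chromatids, rose by 2.27 ± 0.31 (4.82-fold). The condensin I subunits Ncapg and Ncaph rose by 1.68 ± 0.22 and 1.17 ± 0.18, and the condensin II subunit Ncapg2 rose by 1.61 ± 0.21.

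Of the 10 kinesin motors 9 were called higher, and the median change was 1.74. Kif11, the motor that pushes spindle poles apart, had 11.41, 11.30 and 12.13 in HFD pools and 9.80, 9.24 and 8.88 in NCD pools. The groups were well apart, with a change of 2.31 ± 0.31 (4.94-fold, adjusted p = 0.0112). Kif18b, a motor at the ends of astral microtubules, had 7.31, 7.30 and 7.92 in HFD pools and 6.67, 6.66 and 6.43 in NCD pools. NCD1 and NCD2 were nearly equal, and the change was 0.92 ± 0.19 (adjusted p = 0.0345). Kif23, the motor subunit of centralspindlin, had 10.33, 10.35 and 11.12 in HFD pools and 9.78, 9.20 and 8.67 in NCD pools. It was the only gene of the 48 not called: the groups did not overlap, but NCD pools differed by up to 1.11, and the change of 1.39 ± 0.33 had an adjusted p of 0.0559. Without NCD1 it was called (adjusted p = 0.0172).

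Kif20a, a motor that carries the passenger complex to the central spindle, rose by 2.27 ± 0.32 (4.83-fold). Kif15, which can replace Kif11 in keeping spindles bipolar, rose by 1.94 ± 0.28. The chromosome-bound motors Kif4 and Kif22 rose by 1.79 ± 0.24 and 1.38 ± 0.21. Kif2c, which takes microtubules apart at kinetochores, rose by 1.72 ± 0.26, and the cytokinesis motors Kif20b and Kif14 rose by 1.76 ± 0.33 and 1.28 ± 0.26. The arrays also carry rows for pseudogenes of 3 of the 48 genes, whose sequence may be shared with their parent genes. The pseudogene changes were 0.22 ± 0.096 for Ccnb2-ps, 0.30 ± 0.077 for Kif22-ps and 0.092 ± 0.12 for Kif4-ps, and none was called (limma adjusted p = 0.220, 0.0678 and 0.718).

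The 5 genes of spindle assembly and microtubule bundling had the highest median change of the 8 roles, 2.46, and all were called. Tpx2, which activates Aurka and promotes microtubule growth around chromosomes, had 10.76, 10.87 and 11.46 in HFD pools and 9.10, 8.42 and 8.16 in NCD pools. The lowest HFD pool stood 1.66 above the highest NCD pool, and the change was 2.47 ± 0.29 (5.55-fold, adjusted p = 0.00826). Nusap1, a microtubule-bundling protein, had 9.10, 9.07 and 9.85 in HFD pools and 7.79, 7.26 and 6.96 in NCD pools, a change of 2.00 ± 0.29 (adjusted p = 0.0133). HFD1 and HFD2 were nearly equal and HFD3 was highest. Hmmr, a spindle-associated protein that also binds hyaluronan, rose by 2.54 ± 0.34 (5.82-fold). Prc1, which crosslinks microtubules of the central spindle, rose by 2.46 ± 0.30 (5.50-fold), and Aspm, a spindle pole protein, rose by 2.08 ± 0.30.

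The 3 cytokinesis genes were called higher, with a median change of 1.90. Ect2, the exchange factor that activates RhoA at the division plane, had 10.34, 10.25 and 11.02 in HFD pools and 8.92, 8.18 and 7.98 in NCD pools. The groups were apart by more than 1 log2, and the change was 2.18 ± 0.30 (4.52-fold, adjusted p = 0.0126). Racgap1, the partner of Kif23 in centralspindlin, had 8.29, 8.20 and 8.88 in HFD pools and 7.69, 7.40 and 6.95 in NCD pools. Its groups were apart by 0.51, with a change of 1.11 ± 0.25 (adjusted p = 0.0459). Anln, which encodes the cleavage furrow scaffold anillin, rose by 1.90 ± 0.28.

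The 48 genes moved together from pool to pool within each diet as well. HFD3 was the highest HFD array for 48 of 48 genes, against 40.9% of all genes, and its excess over the mean of HFD1 and HFD2 had a median of 0.65 log2. That excess ran from 0.21 in Birc5 to 1.01 in Kif20a, while HFD1 and HFD2 differed by a median of 0.096. NCD1 was the highest NCD array for 45 of 48 genes, against 39.9% of all genes, and NCD3 the lowest for 47 of 48, against 42.5%. The 3 NCD pools spread over a median of 0.70 log2. HFD3 was also the HFD pool with the highest neutrophil and macrophage markers (macrophage 15.3, against 15.1 in HFD1 and 15.2 in HFD2). In monocyte, dendritic cell, mast cell, fibroblast, and smooth muscle and pericyte markers HFD3 was the lowest HFD pool. NCD3, lowest in mitotic level, was lowest in macrophage markers too (14.4, against 15.1 in NCD1 and NCD2). NCD1, highest in mitotic level in NCD, had the lowest endothelial marker level of its diet (12.2, against 14.2 in NCD2 and 14.7 in NCD3). Smooth muscle and pericyte markers had the same order, at 10.2, 11.1 and 12.1 on NCD1 to NCD3. NCD1 was the lowest NCD pool in neutrophil and adipocyte markers too. Its B and plasma cell marker level was the highest (9.70, against 8.42 and 8.13). So were its levels of monocyte, T cell, eosinophil, fibroblast and mesothelial markers, though T cell and eosinophil levels of NCD2 and NCD3 lay below the background level of 6.23. Natural killer and mast cell markers were highest in NCD1 too (5.91 and 5.96), but were below background in all 3 NCD pools and cannot be ranked. Endothelial marker levels of the HFD pools were 12.7, 11.3 and 11.3 on HFD1 to HFD3, so HFD1 lay above NCD1. The part of any of these cells in the order of the pools was not tested.

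**Figure D3:**
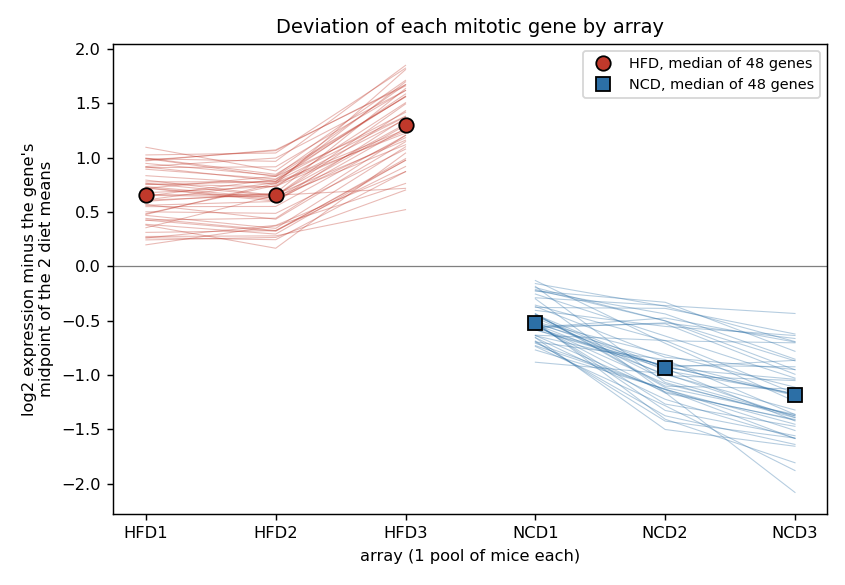
Log2 expression of each of the 48 genes minus the midpoint of its diet means (y axis) on the 6 arrays (x axis), with a thin line joining the values of 1 gene within a diet and large symbols at the median. The lines only identify genes, as pools have no order, and HFD3 lies highest in HFD and NCD3 lowest in NCD.

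Other cells in the pools differed between diets too. Of the 11 endothelial markers 0 were called by limma, 9 were lower in HFD at an unadjusted p below 0.05, and all were above background on all arrays. Smooth muscle and pericyte markers were called lower in HFD for 8 of 10, and mesothelial markers for 6 of 6, with a mean log2 level of 5.51 to 5.70 in HFD pools and 7.11 to 7.65 in NCD pools. The mesothelial genes Msln, Krt19, Krt8, Wt1 and Lrrn4, and the smooth muscle gene Lmod1, were below the background level of 6.23 on all HFD arrays. Only lower bounds hold for them, the NCD mean over background, from 0.95-fold for Wt1 to 4.04-fold for Lrrn4. Mast cell markers were called higher for 4 of 7, and fibroblast and adipose progenitor markers for 4 of 8, with 2 others of that list lower at an unadjusted p below 0.05. Of the mast cell calls, Tpsb2 and Cma1 were below background on all NCD arrays, with lower bounds of 1.52-fold and 1.49-fold. Dendritic cell markers were called lower for 2 of 7, with a mean level of 6.92 to 7.26 in HFD pools and 7.72 to 7.93 in NCD pools. The 4 measured monocyte markers all had negative changes, with a mean level of 10.2 to 10.8 in HFD pools and 11.3 to 11.4 in NCD pools. Of these 4, limma called 0, and 2 were lower at an unadjusted p below 0.05. The 6 measured T cell markers averaged 5.92 to 5.98 in HFD pools and 6.02 to 6.59 in NCD pools, with 1 above background on all arrays, and 0 were called or had an unadjusted p below 0.05. Of the macrophage markers, 2 of 8 were called higher and 1 lower. The endothelial covariate used above differed between the diets itself, so its fit cannot separate endothelial content from diet. The part of these cells in the mitotic changes was not tested.

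**Figure D4:**
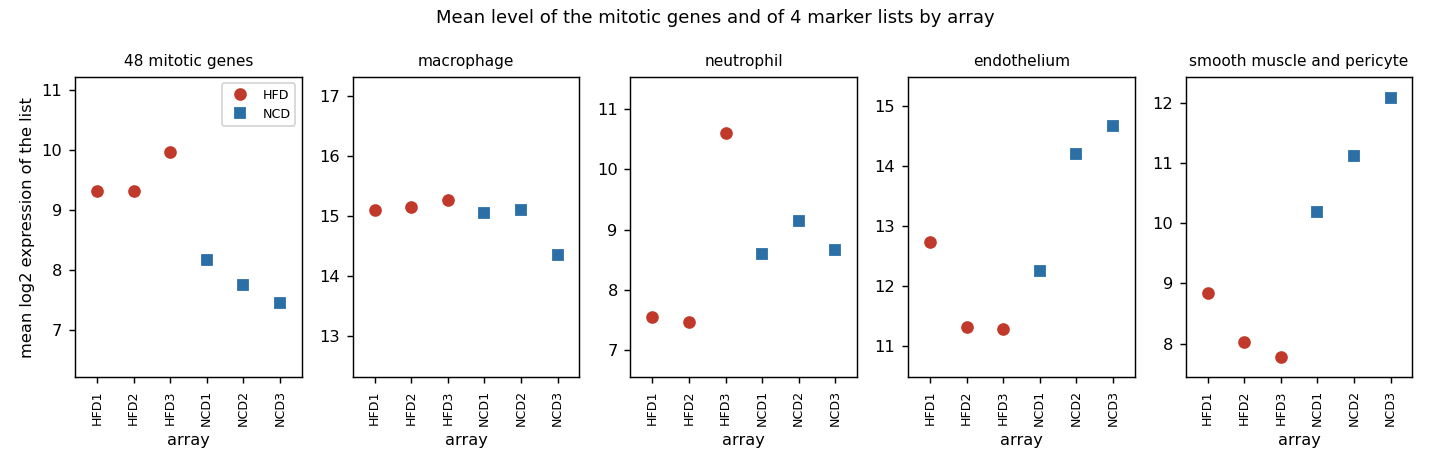
Mean log2 expression (y axis, each panel spanning the same range of 5 log2 units) of the 48 mitotic genes and of the macrophage, neutrophil, endothelial, and smooth muscle and pericyte marker lists on each array (x axis), with HFD arrays as circles and NCD arrays as squares. Endothelial markers ran from 11.3 to 12.7 in HFD pools and from 12.2 to 14.7 in NCD pools.

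Genes of the same process outside the 48 were also examined. Of 99 other mitotic genes, 45 were called higher, 0 were called lower and 1 was lower at an unadjusted p below 0.05, with a median change of 0.64. The count was 22 without HFD1, 10 without HFD2, 13 without HFD3, 58 without NCD1, 7 without NCD2 and 29 without NCD3, and 6 with the endothelial covariate, in fits whose shares over all genes are given above. The difference in share between these genes and the 48 was not tested. Cdc25c, Pkmyt1, Ska1, Troap, Pimreg and Psrc1 were called but were below background on all NCD arrays, so only lower bounds hold for them. These bounds were 1.55-fold for Cdc25c, 1.31 for Pkmyt1, 1.28 for Troap, 1.04 for Pimreg, 1.03 for Psrc1 and 0.93 for Ska1. Among other mitotic kinases, phosphatases and their regulators 7 of 13 were called, led by the smallest adjusted p in Haspin, the histone H3 kinase (0.72 ± 0.088, adjusted p = 0.00935). Other spindle and cytokinesis genes were called in 12 of 23, with Depdc1a at 1.86 ± 0.25 (adjusted p = 0.0114). Depdc1a lost its call without HFD2, HFD3 or NCD2, and Haspin with the endothelial covariate.

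Of 31 other kinetochore and centromere genes 21 were called higher, including Cenph, a subunit of the inner kinetochore (1.69 ± 0.18, adjusted p = 0.00691). Bub3 and Mad1l1 encode further checkpoint proteins: Bub3 had a change of 0.43 ± 0.12 (adjusted p = 0.0891) and Mad1l1 0.19 ± 0.11 (adjusted p = 0.375), and neither was called. Of 16 condensin, cohesin and separase genes 3 were called, with a list median of 0.13. These were Esco2, the acetyltransferase that establishes cohesion (1.20 ± 0.18, adjusted p = 0.0147), and the condensin subunits Smc2 (1.37 ± 0.23) and Ncapd2 (1.08 ± 0.21), the last 2 named after their values were seen. Esco2 lost its call without HFD2, HFD3 or NCD2, Smc2 and Ncapd2 were each called in 1 of the 6 fits without an array, and none of the 3 was called with the endothelial covariate. The cohesin ring genes Smc1a, Smc3 and Rad21, also named after their values were seen, had changes of −0.19 ± 0.14, 0.074 ± 0.23 and 0.17 ± 0.11 and were not called. Of 16 subunits and cofactors of the anaphase-promoting complex in a separate list, 2 were called, with a list median of 0.19. These were Anapc15, which helps switch off the checkpoint (0.97 ± 0.11, adjusted p = 0.0083), and the ubiquitin-conjugating enzyme Ube2s (0.61 ± 0.13), named after its value was seen. Anapc15 lost its call without HFD2, and Ube2s was called in 0 of the 6 fits without an array.

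**Figure D5:**
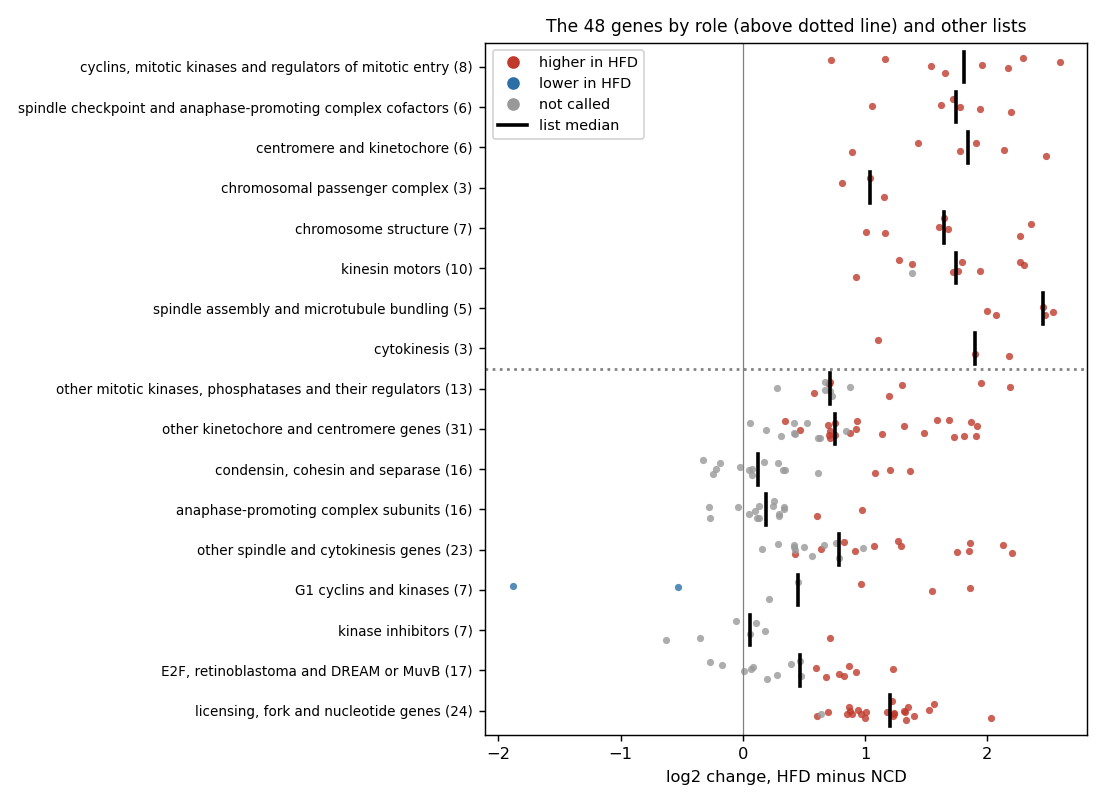
Log2 change, HFD minus NCD (x axis), of each gene in the 8 roles of the 48 mitotic genes (above the dotted line) and in 9 further cell cycle lists, with list sizes in parentheses, a bar at the list median and colours for the limma call. Medians of the 8 roles lie between 1.04 and 2.46, against 0.13 for condensin, cohesin and separase and 0.19 for the anaphase-promoting complex.

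Genes upstream of mitosis were mixed. Cdk6, a G1 kinase that pairs with D-type cyclins, had 11.86, 12.09 and 12.04 in HFD pools and 10.27, 10.15 and 10.01 in NCD pools. The groups were well apart, and the change was 1.86 ± 0.13 (adjusted p = 0.00208). The E-type cyclins Ccne1 and Ccne2, which drive entry into S phase, rose by 0.96 ± 0.15 and 1.55 ± 0.23, and both are named after their values were seen. Ccne1 was called in 4 and Ccne2 in 3 of the 6 fits without an array, and neither with the covariate. Ccnd2, a D-type cyclin, had 9.96, 9.88 and 9.31 in HFD pools and 11.12, 11.36 and 12.31 in NCD pools. It was lower in HFD, with a change of −1.88 ± 0.34 (adjusted p = 0.0248), and Ccnd3 was lower as well (−0.53 ± 0.10, adjusted p = 0.0293). Ccnd2 lost its call without HFD1, HFD2, HFD3 or NCD2 and with the endothelial covariate, where its change was −1.22. Ccnd3 was called in 1 of the 6 fits without an array, that without NCD1, and lost its call with the covariate (−0.47) and when all transcript clusters were tested. Ccnd1 was not measured. Of 7 inhibitors of cyclin-dependent kinases 1 was called, Cdkn2c, an inhibitor of Cdk4 and Cdk6, higher at 0.72 ± 0.13 (adjusted p = 0.0235). It lost its call without HFD2, HFD3 or NCD2 and with the endothelial covariate (0.57). Cdkn1a, the p53 target p21, had a change of 0.056 ± 0.20 (adjusted p = 0.906) and was −0.089 with array weights and −0.16 without NCD1.

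Of 17 genes of the E2F, retinoblastoma and MuvB families 7 were called higher, with a median change of 0.47. E2f1 and E2f3, activating factors of S-phase genes, rose by 0.92 ± 0.16 and 0.83 ± 0.10 (adjusted p = 0.0235 and 0.00927). E2f1 lost its call without HFD1, HFD2, HFD3 or NCD2, E2f3 without HFD3, and both with the endothelial covariate (0.62 and 0.73). Lin54, the MuvB subunit that contacts the CHR, had a change of 0.088 ± 0.12 (adjusted p = 0.741). Mybl2, which joins MuvB at mitotic genes, had 6.08, 6.10 and 6.46 in HFD pools and 5.80, 5.75 and 5.68 in NCD pools, with 1 of 6 arrays above background and no call (adjusted p = 0.062). DNA replication genes were called higher in 23 of 24, with a median change of 1.20, and Gins1, a subunit of the replicative helicase, had the smallest adjusted p (2.65-fold higher, adjusted p = 0.00788). Gins1 lost its call with the endothelial covariate.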

How the data were processed

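Total RNA of 6 macrophage pools was measured on Affymetrix arrays, 1 array per pool. The authors' deposited values are log2 expression per transcript cluster and were used as they stand. RMA is named in the submitters' processing notes, as are version 1.4.1.46 of Affymetrix Expression Console and version 3.1.0.5 of Transcriptome Analysis Console. Which program did what, which library files and which build were used is not given in the sources used here, and the log2 scale was read from the range of the values (2.49 to 19.5). RMA works on a log2 scale and compresses differences at low signal, so changes of dim genes may be understated.

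Of 65956 transcript clusters, 30604 carried 1 gene symbol, 2146 several and 33206 none. Symbols of 22815 clusters were matched to RefSeq by Entrez identifier and 827 were updated. The cluster with the highest mean was kept per gene, giving 30142 genes, of which 14395 (47.8%) averaged below a background level of 6.23 (the 95th percentile of 23 antigenomic probe sets, averaged over arrays). Diets were compared with limma 3.58.1 (lmFit, eBayes with a mean-variance trend) in R 4.3.3 (with the package data.table, version 1.17.8), two-sided, with Benjamini-Hochberg adjustment over all 30142 genes. Calls needed an adjusted p under 0.05. A change is the HFD mean minus the NCD mean in log2, given with limma's moderated SE. With 3 arrays per diet, the median SE over all genes was 0.118, and this number of arrays bounds the precision. The fit was tested on simulated data drawn independently for each gene, so that test does not cover genes that move together from pool to pool. Promoter sequences are RefSeq's (GRCm38.p6), matched by symbol. The plots and summaries were made with pandas 2.3.3 and matplotlib 3.10.9 in Python 3.11.15.

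The members, lists and alternatives were chosen with earlier results of these data known. By rule, all members are named, and array values are given for the member of each role with the smallest adjusted p, the one with the smallest change, and any not called. Ccnb2, Cdk1 and Mki67 were added after their values were seen. In other lists the called gene with the smallest adjusted p in each direction, up to 5 genes called lower, and Cdkn1a, Cdkn2c, Ccnd1, E2f1, Mybl2, Lin54, Bub3 and Mad1l1 are named. Alternatives were median centring, quantile normalization, filters on dim genes, no trend, array weights, the replicate number as a block, other choices of cluster, an endothelial covariate and leaving out each array.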

Additional observations from a re-analysis of the deposited data

How the results depend on the processing

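The counts of calls depended on the arrays and on the terms of the model more than the changes did: all 48 mitotic genes kept a positive change under every alternative run. Among the 48, 46 to 48 were called under either normalization, either filter, no trend, array weights and the mean of clusters. Where genes below background were dropped, 47 of the 47 kept were called, and 40 of 48 when all transcript clusters were tested. The share of all genes called higher moved too. It was 8.54% with median centring, 5.50% with quantile normalization, and 11.9% with genes below background dropped. With the lowest 25% dropped it was 7.66%, with no trend 5.80% and with array weights 7.78%. It was 4.96% with the mean of clusters and 3.24% with all transcript clusters tested. Leaving out an array gave 4 to 48 calls of the 48 and 7 to 58 of the 99 other mitotic genes, and a median change of 1.56 to 1.94. With the endothelial covariate there were 6 calls in each set, and the median change was 1.27. Deviations of pools with the same replicate number in the 2 diets had correlations of −0.55, −0.21 and −0.20. Pools of different number had −0.40 to 0.49. With 3 pools per diet, these values cannot show whether the numbers pair the pools. With the replicate number as a block there were 0 calls among the 48 and 0 among the 99 in limma, against 0.299% of all genes called higher. The smallest limma adjusted p of the 48 with the block was 0.0563, for Birc5. The block fit had 2 residual degrees of freedom in place of 4, and 144 genes were called in all, in either direction. Cdkn1a turned to −0.089 with array weights and −0.16 without NCD1 (0.22 at most, without NCD2), and Lin54 to −0.099 with the endothelial covariate; neither was called, and the cause was not tested. Median centring moved the median of all genes to 0.10. Of the 48, the 3 genes below background in NCD have only bounds.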
